A study of Mus musculus with 2 samples.

Results

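In adherent cultures of GL261, a glioma line from C57BL/6 mice, a minority of cells held many transcripts of Cxcl10, the gene of a chemokine that draws activated T cells and NK cells through the receptor CXCR3. A kept adherent cell was counted as a Cxcl10-burst cell when it held at least 10 UMIs of Cxcl10, a UMI being a molecular tag that stands for 1 captured transcript. By this rule 339 of 5051 kept adherent cells were members, 6.71% (exact binomial 95% interval 6.04% to 7.44%). They were compared with the 3323 kept adherent cells that held 0 UMIs of Cxcl10, and the 1389 cells with 1 to 9 UMIs were followed as a middle group. The series held 9327 kept cells in all, 5051 of them adherent and 4276 from neurospheres.

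Adherent GL261 cells were grown in DMEM with 10% FBS. Neurosphere cells of the same line were grown for 12 days in this medium, also with 10% FBS. EGF and FGF, each at 20 ng/mL, and B-27 at 1:50 were added to it. Both cultures were frozen in medium with DMSO, and each gave 1 library of the 10x Genomics 3′ v3 single-cell chemistry. Because each condition had 1 library and cells of 1 library are not replicates, differences are given as sizes, without significance tests. A gene was called when its level differed more than 2-fold between groups, and the 95% intervals given throughout cover counting error only.

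The kept adherent cells held 46290996 UMIs after mitochondrial and ribosomal genes were dropped. Of these, 3748788 came from members, 14529818 from the middle group and 28012390 from the cells without Cxcl10. A member held a median of 9807 UMIs (range 3665 to 31599) against 7737 (1677 to 29852) in a cell without Cxcl10 and 9189 in a middle cell. The members were therefore the deeper cells on average, with wide overlap. Members made up 3.67% of the shallowest quintile of kept cells and 10.5% of the deepest. For that reason the shares of cells with Ccl5, Rsad2, Ifit1, Ifih1, Oasl1 and Gbp5 are given below also after each cell was thinned to 5000 UMIs. Thinning left out 20 members and 466 cells without Cxcl10. Other shares of cells, among them those of marker combinations, are not corrected for depth. The median mitochondrial share was 1.88% in members and 2.06% in cells without Cxcl10, and the median ribosomal share was 29.1% and 29.7%. The 2 libraries shared 12 barcodes among their called cells, and 1 of these was a member.

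Cells sense nucleic acid in the wrong place through RIG-I and MDA5, through Toll-like receptors and through cGAS and STING, and these pathways act through kinases on IRF3 and NF-κB to switch on the interferon-β gene. Secreted interferon binds its receptor on the same and neighboring cells, where the kinases JAK1 and TYK2 activate transcription factors that bind the interferon-stimulated response element of many antiviral genes. Cxcl10, Ccl5, Rsad2 and Ifit1 are all known targets of these pathways, and Cxcl10 and Ccl5 are also targets of NF-κB.

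The members were selected on their Cxcl10 UMIs, so the values of Cxcl10 are a description and no fold is given for it. Members held a lowest count of 10, a median of 20 and a highest count of 171 UMIs of Cxcl10. They carried 10247 of the 13675 Cxcl10 UMIs in kept adherent cells, 74.9%, and the middle cells carried the remaining 3428. The number of cells declined with rising Cxcl10 count and showed no gap at the threshold, with 43 cells at 8 UMIs, 22 at 9, 30 at 10 and 19 at 11. Just inside it, in the 72 cells with 10 to 12 UMIs, Rsad2 stood at 602 CPM (the gene's UMIs per 1000000 UMIs of the genes left, summed over the cells of a group), Ifit1 at 433 CPM and Ccl5 at 62.6 CPM. Just outside it, in the 105 cells with 7 to 9 UMIs, Rsad2 stood at 586 CPM, Ifit1 at 401 CPM and Ccl5 at 131 CPM. The intervals on the 2 sides overlapped for Rsad2 and Ifit1, and those for Ccl5 did not (110 to 154 CPM outside against 46.3 to 82.8 CPM inside). Oasl1, an interferon-stimulated gene, differed the other way, at 8.94 CPM (4.29 to 16.4) outside and 26.8 CPM (16.6 to 41.0) inside. Ccl5 was detected in 16 of the 105 cells outside and 11 of the 72 inside, and over wider ranges its level was 97.5 CPM at 5 to 9 UMIs and 116 CPM at 10 to 19 UMIs. The spread between cells is not covered by these intervals.

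**Figure D1:**
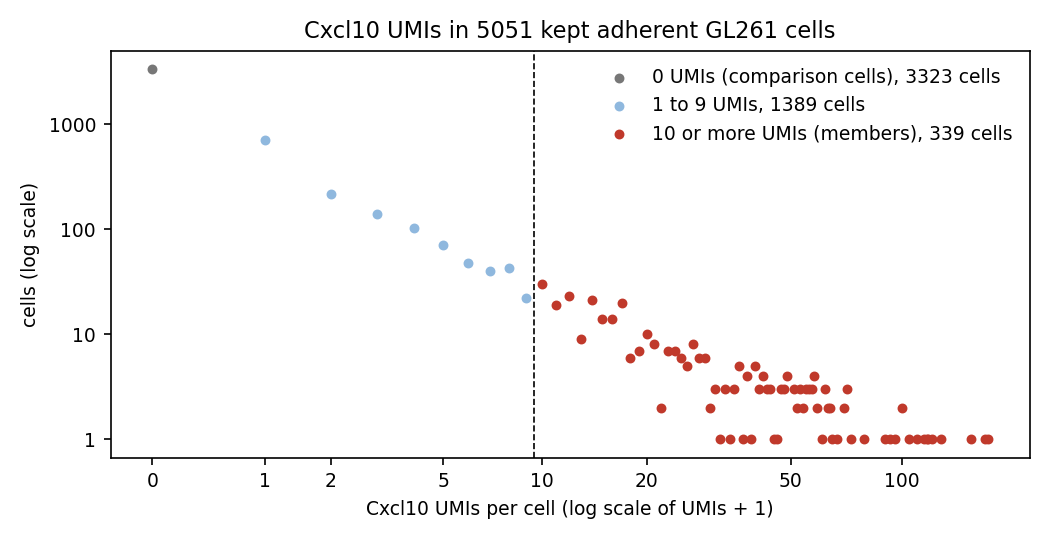
Number of kept adherent cells at each count of Cxcl10 UMIs per cell. The 339 members lie at 10 UMIs or more, and the counts of cells run across the threshold without a gap.

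The other marker genes of the label were all higher in members. Ccl5, a chemokine that attracts T cells and other leukocytes, was the most unequally spread of them. Its lowest and median counts in members were 0 and its highest was 78 UMIs, and in cells without Cxcl10 the highest was 25. A Ccl5 UMI was found in 86 of 339 members, 25.4%, and in 3.07% of cells without Cxcl10. The thinned shares were 21.6% and 2.24%. Its pooled level was 242 CPM (227 to 258) in members, 37.9 CPM in middle cells and 12.1 CPM (10.9 to 13.5) in cells without Cxcl10, a log2 fold change of 4.32 (4.14 to 4.50). Most members thus held no detected Ccl5, while a minority held many UMIs. The levels differed with depth within the members. Because the rule is a fixed count of 10 UMIs, a shallower member needed a higher CPM of Cxcl10 to enter. The values by depth are therefore a description that the rule itself shapes. Under the median depth of the members Ccl5 stood at 409 CPM and Cxcl10 at 3705 CPM. At or over that depth they stood at 159 and 2246 CPM. Rsad2 and Ifit1 were also higher in the shallower members (1265 against 907 CPM and 730 against 554 CPM).

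Rsad2 encodes viperin, an antiviral enzyme that makes a chain-terminating nucleotide. Members held a lowest count of 0, a median of 8 and a highest count of 83 UMIs, whereas cells without Cxcl10 had a median of 0 and a highest count of 17. The pooled levels were 1027 CPM in members, 300.0 CPM in middle cells and 122 CPM in cells without Cxcl10, a log2 fold change of 3.08 (3.01 to 3.14). A Rsad2 UMI was found in 94.7% of members and 48.9% of cells without Cxcl10, or 86.8% and 36.1% after thinning. The groups overlapped, since many cells without Cxcl10 had Rsad2 at a low count.

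Ifit1 encodes a protein that binds foreign RNA lacking the cap methylation of host transcripts. Members held a lowest count of 0, a median of 5 and a highest count of 43 UMIs, and cells without Cxcl10 a median of 0 and a highest count of 27. Its level was 613 CPM against 113 CPM, with 228 CPM in middle cells, a log2 fold change of 2.44 (2.36 to 2.51). An Ifit1 UMI was found in 90.0% of members and 44.3% of cells without Cxcl10, or 78.1% and 33.7% after thinning. Against all cells with 0 to 9 UMIs of Cxcl10 the log2 fold changes were smaller, 3.53 for Ccl5, 2.49 for Rsad2 and 2.01 for Ifit1. The cultures held no cell type known to lack these genes, and the part of these shares that ambient RNA could account for was not tested.

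Seen cell by cell, most members held more than 1 of the other markers. In 79 of 339 members (23.3%) Ccl5, Rsad2 and Ifit1 were all detected, and in 213 (62.8%) Rsad2 and Ifit1 were detected without Ccl5. All 86 members with Ccl5 also held Rsad2, as did 321 of all 339 members. Taken over all members, the count with Ccl5 and without Rsad2 was 0 of 339 (exact 95% interval 0% to 1.08%). Of the other members 22 held Rsad2 alone of the 3 genes, 13 held Ifit1 alone and 5 held none. Among the cells without Cxcl10, by contrast, 1056 of 3323 (31.8%) held none of the 3 and 38 (1.14%) held all of them. Members with Ccl5 had Cxcl10 at 3166 CPM and Rsad2 at 1285 CPM, and members without it had Cxcl10 at 2575 CPM and Rsad2 at 932 CPM. The median depth of these sets was 10024 and 9715 UMIs.

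Within the members, the Spearman correlation of the Cxcl10 count over the 339 cells was 0.51 with Rsad2, 0.33 with Ifit1, 0.28 with Isg15 and 0.16 with Ccl5. It was 0.07 with the total UMIs of the cell and 0.06 with Bst2. These coefficients are descriptions over cells of 1 library that share its depth and handling. Starting from the other genes, 275 kept adherent cells held at least 10 UMIs of Rsad2, and 152 of these were members, 102 middle cells and 21 cells without Cxcl10. Of 99 cells with at least 5 UMIs of Ccl5, 44 were members and 21 held no Cxcl10 UMI. High Ccl5 or high Rsad2 was therefore found outside the members as well.

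**Figure D2:**
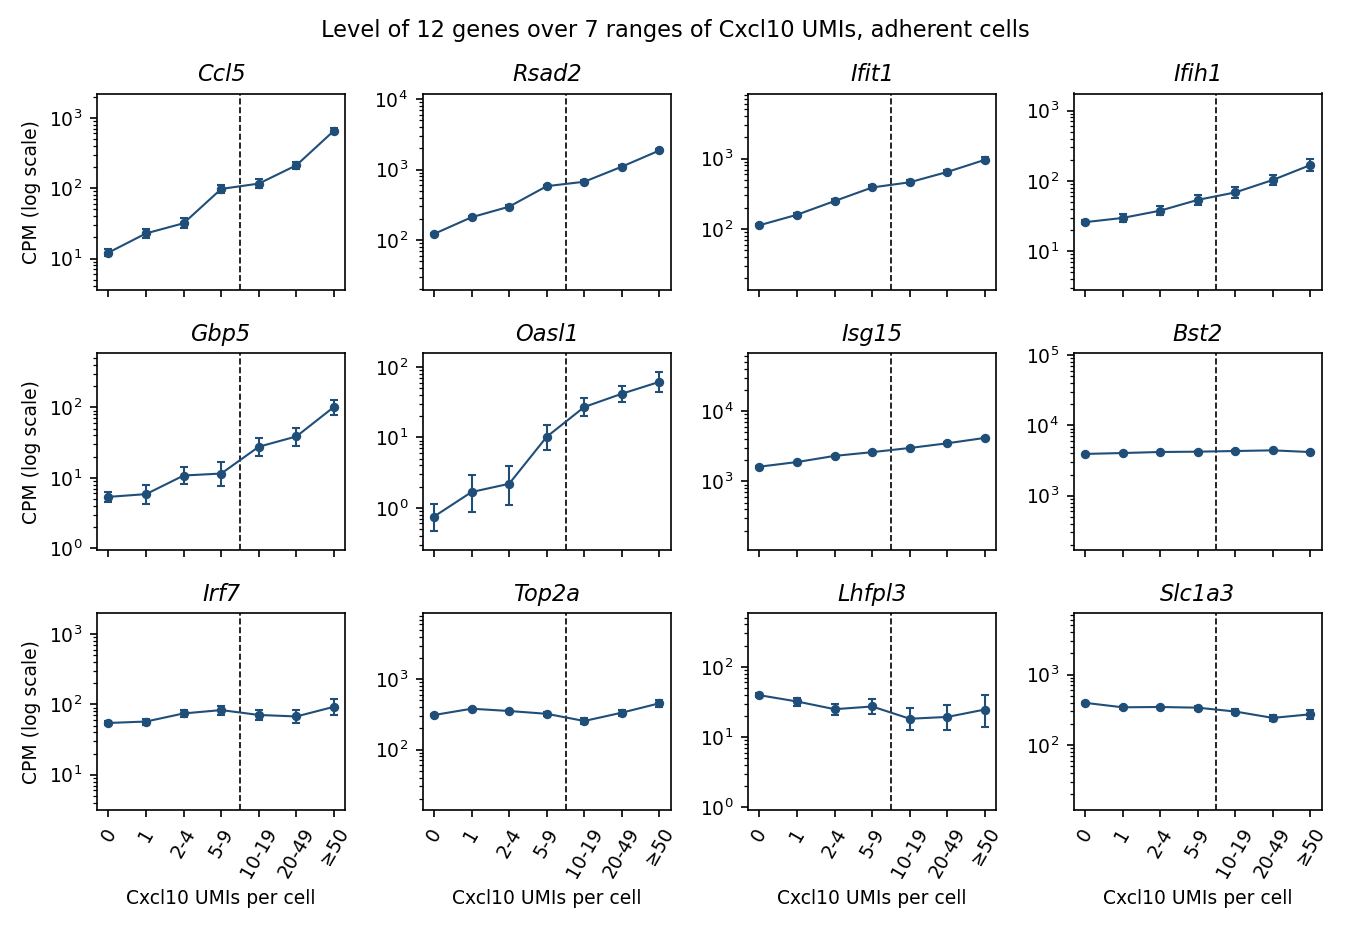
Pooled level of 12 genes, in CPM on log axes, over 7 ranges of the Cxcl10 count per adherent cell, with exact 95% intervals for counting error. Ccl5 ran from 12.1 CPM in cells without Cxcl10 to 655 CPM in the highest range, Rsad2 from 122 to 1870.2 CPM, and Bst2 from 3922 to 4169 CPM.

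Across the genome, 9717 genes had enough UMIs over all kept adherent cells to enter the comparison. Of these, 34 genes (0.35%), Cxcl10 among them, were over 2-fold higher in members, and 38 genes (0.391%) were over 2-fold lower. The median log2 fold change over all genes entered was −0.07, with quartiles of −0.24 and 0.06, so the bulk of the transcriptome lay close to equal. For 21 of the 34 higher genes the whole interval lay over 2-fold, and for 0 of the 38 lower genes did it do so. In 33 of the 34 higher genes, including Cxcl10, for which the grouping fixes this order, the middle cells lay between the other groups, as they did in 36 of the 38 lower genes. Over all 9717 genes entered the middle cells lay between in 1452 genes that were higher in members and 3428 that were lower. Of the higher genes 18 belonged to the lists used here, which were chosen with earlier results of these data known, and of the lower genes 0 did. The share of all genes entered that belonged to any list was not counted. The interferon-stimulated list held 11 of the 34 higher genes and 36 of the 9717 genes entered. Since Cxcl10 chose the cells and is itself a target of interferon, nothing is read from these counts beyond the values.

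Some calls were lost when a single cell was left out. Each gene was recomputed, by a choice made once the data had been seen, without the member that held most of its UMIs, and 29 of the 34 higher genes remained over 2-fold. The others were Rgs16, Lcn2, S100a3, Ifi47 and Irf1. With all cells Rgs16 (1.02), S100a3 (1.06), Ifi47 (1.01) and Irf1 (1.03) lay just past 2-fold. Without that member Ifi47 was at 0.84 and Irf1 at 0.98, while Lcn2 moved from 1.48 to 0.48.

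The ligands came first in the pathway and were scarce. Of 21 interferon genes, 17 had no UMI in any kept adherent cell, among them the listed Ifna genes and Ifng, and 1 gene entered. Ifnb1, the gene of interferon-β, had 22 UMIs in 9 members (2.65%), 1 UMI in a middle cell with 4 UMIs of Cxcl10, and 0 UMIs in cells without Cxcl10. Its level in members was 5.87 CPM (3.68 to 8.89), 54.8-fold the 0.107 CPM that 3 UMIs over the cells without Cxcl10 would give. The exact upper limit for the 0 UMIs counted there was 0.132 CPM, so this fold is not a bound. One member held 10 of the 22 UMIs, and without it the log2 value was 4.91 in place of 5.78. After thinning the log2 value was 4.75. At a Cxcl10 minimum of 5 or 20 UMIs it was 5.07 or 6.66. Against cells with 0 to 9 UMIs of Cxcl10, which held 1 UMI of Ifnb1, the log2 fold change was 7.96, a loose value. The 9 members with Ifnb1 held between 10 and 168 UMIs of Cxcl10. Ifnb1 was detected in 1 of 163 members with 10 to 19 UMIs of Cxcl10, 3 of 119 with 20 to 49 and 5 of 57 with 50 or more. Of the 22 UMIs, 19 lay in members that also held Ccl5. Ifnz, the gene of limitin, an interferon of the type I family, was the ligand gene with most UMIs, with 37 UMIs in members and 224 in cells without Cxcl10, a log2 fold change of 0.30 (−0.24 to 0.81).

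Of the 9 genes for interferon receptors and their kinases 8 entered, 0 were over 2-fold higher or lower, and the median log2 fold change was 0.0045. Ifnar2, a chain of the type I receptor, was at 73.6 CPM in members and 74.1 CPM in cells without Cxcl10, and Jak1 at 50.9 and 50.3 CPM. Ifnar1, the other chain, was at 7.74 CPM (29 UMIs) and 12.3 CPM, a log2 fold change of −0.67 (−1.27 to −0.12). After thinning it was −1.35, past 2-fold, but at a Cxcl10 minimum of 5 or 20 UMIs it was −0.25 or −0.26. Ifnlr1, the receptor chain of interferon-λ, had no UMI in any kept adherent cell.

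Of 18 sensors and adaptors 15 entered, 1 was over 2-fold higher (0.35% over all genes entered) and 0 lower, with a median of −0.04. The higher one was Ifih1, which encodes MDA5, a sensor of long double-stranded RNA. Its count per member had a lowest value of 0, a median of 1 and a highest of 9, and its level was 97.6 CPM against 25.9 CPM, a log2 fold change of 1.92 (1.73 to 2.10). It was detected in 180 of 339 members and 632 of 3323 cells without Cxcl10, and after thinning in 33.9% and 12.7% of cells. Dhx58, the gene of the related protein LGP2, had a log2 fold change of 0.90 (0.52 to 1.26), and was just past 2-fold at a Cxcl10 minimum of 20 UMIs (1.02) and by the mean CPM over cells (1.03). Zbp1, a sensor of Z-form nucleic acid, had 0.65 (0.50 to 0.80). Ddx58, which encodes RIG-I, was at 121 and 104 CPM. Mavs, the adaptor of both RNA sensors, and Cgas had log2 fold changes of −0.24 and −0.28, with intervals that held 0. Tlr7 and Tlr9 had no UMI in any kept adherent cell.

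Of 16 transcription factors 13 entered, 1 was over 2-fold higher (0.35% over all genes entered) and 0 lower, with a median of 0.04. Irf1, which activates many interferon targets, had a log2 fold change of 1.03 (0.71 to 1.33) from 109 UMIs in members, and 0.98 without the member that held most of its UMIs. It was also under 2-fold after thinning (0.96), at a Cxcl10 minimum of 5 UMIs (0.85) and against cells with 0 to 9 UMIs of Cxcl10 (0.94). Stat2 followed at 0.60 (0.31 to 0.87) and Irf7, the factor that amplifies type I interferon, at 0.43 (0.24 to 0.62). Irf9, which encodes a DNA-binding partner of Stat2, had −0.10 (−0.44 to 0.23). Irf3 had 0.06 and Rela, a subunit of NF-κB, −0.13. Irf5 did not enter, with 22 UMIs in members and 55 in cells without Cxcl10, a log2 fold change of 1.58 (0.80 to 2.32).

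Most of the entered interferon-stimulated genes lay above 0, and fewer were over 2-fold higher. Of 45 measured genes 36 entered, 11 were over 2-fold higher, 0 were over 2-fold lower and 34 had a log2 fold change above 0. Over all genes entered 0.35% were over 2-fold higher and 3571 of 9717 lay above 0. The median of the list was 0.57 against −0.07 over all genes entered. Mx1, Mx2 and Cxcl11 were not analysed here. Summed over the list, the level was 13838 CPM in members, 10455 CPM in middle cells and 9020 CPM in cells without Cxcl10. Bst2, which encodes tetherin, a protein that holds budding virus at the cell surface, was the most abundant gene of the list and nearly equal, at 4322 CPM in members and 3922 CPM in cells without Cxcl10. Without it the sums were 9516 and 5098 CPM.

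Behind Rsad2 and Ifit1 came Ifit2, a relative of Ifit1, at 50.9 and 9.96 CPM, a log2 fold change of 2.35 (2.08 to 2.63), and Cmpk2, a nucleotide kinase of mitochondria, at 90.7 and 17.8 CPM, also 2.35 (2.14 to 2.55). Ifit3 and Ifit3b were higher as well, but their sequences are so alike that the split of UMIs between them is uncertain. Isg15, a ubiquitin-like modifier, had a median count of 33 UMIs in members and 11 in cells without Cxcl10, and pooled levels of 3365 and 1622 CPM, a log2 fold change of 1.05 (1.02 to 1.08). It was thus detected in nearly every cell of both groups, 99.7% and 98.6%. Against cells with 0 to 9 UMIs of Cxcl10 its value was 0.90, and at a Cxcl10 minimum of 5 UMIs it was 0.92, both under 2-fold. At the low end of the list Parp9 had −0.10 (−0.51 to 0.29).

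Oasl1, which encodes a protein that limits translation of Irf7, was too rare to enter. It is named for holding at least 20 UMIs in members, a minimum set on the high group, so its values are a description only. It had 143 UMIs in 76 members, 47 UMIs in middle cells and 21 UMIs in 19 cells without Cxcl10, a log2 fold change of 5.67 (5.00 to 6.40). Against cells with 0 to 9 UMIs of Cxcl10 the value was 4.58. It was detected in 22.4% of members and 0.572% of cells without Cxcl10, or 13.8% and 0.315% after thinning. All 12 kept adherent cells with at least 3 UMIs of Oasl1 were members.

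Per cell, the list without its most abundant genes Bst2, Ifi27l2a and Isg15 gave a lowest value of 11.3, a median of 45.5 and a highest of 139 UMIs per 10000 in members. In cells without Cxcl10 these were 0, 20.4 and 102. Of the members 202 (59.6%) lay above the 95th percentile of the cells without Cxcl10, which was 40.6, and 12 (3.54%) lay below their median. The distributions were shifted and overlapped.

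Of 14 guanylate-binding proteins and immunity GTPases, which act on vacuoles that hold microbes, 9 entered. Of these, 2 were over 2-fold higher (0.35% over all genes entered) and 0 lower, with a median of 0.68. Gbp5 was at 44.3 and 5.35 CPM, a log2 fold change of 3.05 (2.72 to 3.38), and was detected in 25.4% of members and 4.24% of cells without Cxcl10, or 13.5% and 2.24% after thinning. Gbp2 had 1.99 (1.71 to 2.26) and Iigp1 0.82 (0.46 to 1.16). Irgm2 had 0.06. Because Gbp genes are close relatives, the split of their UMIs is uncertain.

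Of 27 measured chemokine genes 3 entered and 16 had no UMI in members. Ccl5 was over 2-fold higher, as were 0.35% of all genes entered. The others that entered, Ccl25 and Ccl27a, had log2 fold changes of −0.23 and −0.08. Ccl4, a chemokine that attracts leukocytes, had 35 UMIs in 11 members, 0 in middle cells and 1 in the cells without Cxcl10, a log2 fold change of 8.03 (5.46 to 13.37). One cell held 16 of the 35 UMIs, and without it the value was 7.15. With 1 UMI in the comparison the value is loose. It was 6.71 with comparison cells weighted to the depth of members and 9.37 by the mean CPM over cells. After thinning and without cells over the 95th percentile of UMIs the comparison held 0 UMIs. The values of 6.22 and 6.69 are set against the level of 3 UMIs. Ccl2, which attracts monocytes, had 22 and 9 UMIs, a log2 fold change of 4.19 (3.01 to 5.49), but 19 of the 22 lay in a single cell and without it the value was 1.32. For Ccl20 the value of 2.85 (2.01 to 3.68) likewise became 1.47 without 1 cell, and it was 1.68 after thinning. The UMIs of Ccl4 came from 11 members, those of Ccl20 from 6 and those of Ccl2 from 3.

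Among 32 NF-κB targets and feedback inhibitors 13 entered, with a median of 0.22. Of these, 2 were over 2-fold higher (0.35% over all genes entered) and 0 lower. Csf1, a growth factor of macrophages, had a log2 fold change of 1.40 (0.98 to 1.80). Lcn2, an iron-scavenging lipocalin, had 1.48 (1.14 to 1.80), but 54 of its 107 UMIs in members lay in 1 cell, and without that cell the value was 0.48. When cells over the 95th percentile of UMIs were left out, it was −0.046. It was also under 2-fold at a Cxcl10 minimum of 20 UMIs (0.86) and by the mean CPM over cells (0.83). Nfkbia, the inhibitor that NF-κB itself induces, had 0.57 (0.41 to 0.73). Il6 did not enter and is named for its UMIs in members, so its values are a description only. It had 20 UMIs in members and 17 in cells without Cxcl10, a log2 fold change of 3.14 (2.13 to 4.16).

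Of 10 feedback regulators of interferon signaling 9 entered and 0 were called, with a median of −0.11. The largest value was that of Socs1, an inhibitor of Janus kinases, at 0.91 (0.55 to 1.24), which was past 2-fold at a Cxcl10 minimum of 20 UMIs (1.19) and without cells over the 95th percentile of UMIs (1.07). Usp18, which removes Isg15 from proteins and dampens the type I receptor, had 0.53 (0.40 to 0.65), and Socs2 had −0.66 (−1.06 to −0.29).

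Of 21 genes for antigen presentation on MHC class I 18 entered, 0 were called and 14 lay above 0, against 3571 of 9717 over all genes entered, with a median of 0.34. Psmb8, a subunit of the immunoproteasome, had the largest value, 0.56 (0.43 to 0.69), followed by H2-T23 at 0.50. B2m, the most abundant gene of the list, was nearly equal at 966 and 907 CPM. Of 8 class II genes 2 entered and 0 were called, with a median of −0.03. Of 13 ligands of immune checkpoints 5 entered and 0 were called, with a median of 0.31. Cd47, which signals to macrophages not to engulf a cell, had 0.51 (0.39 to 0.63). Cd274, the gene of PD-L1, is named after its values were seen. It did not enter, with 35 and 82 UMIs and a log2 fold change of 1.67 (1.06 to 2.26).

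**Figure D3:**
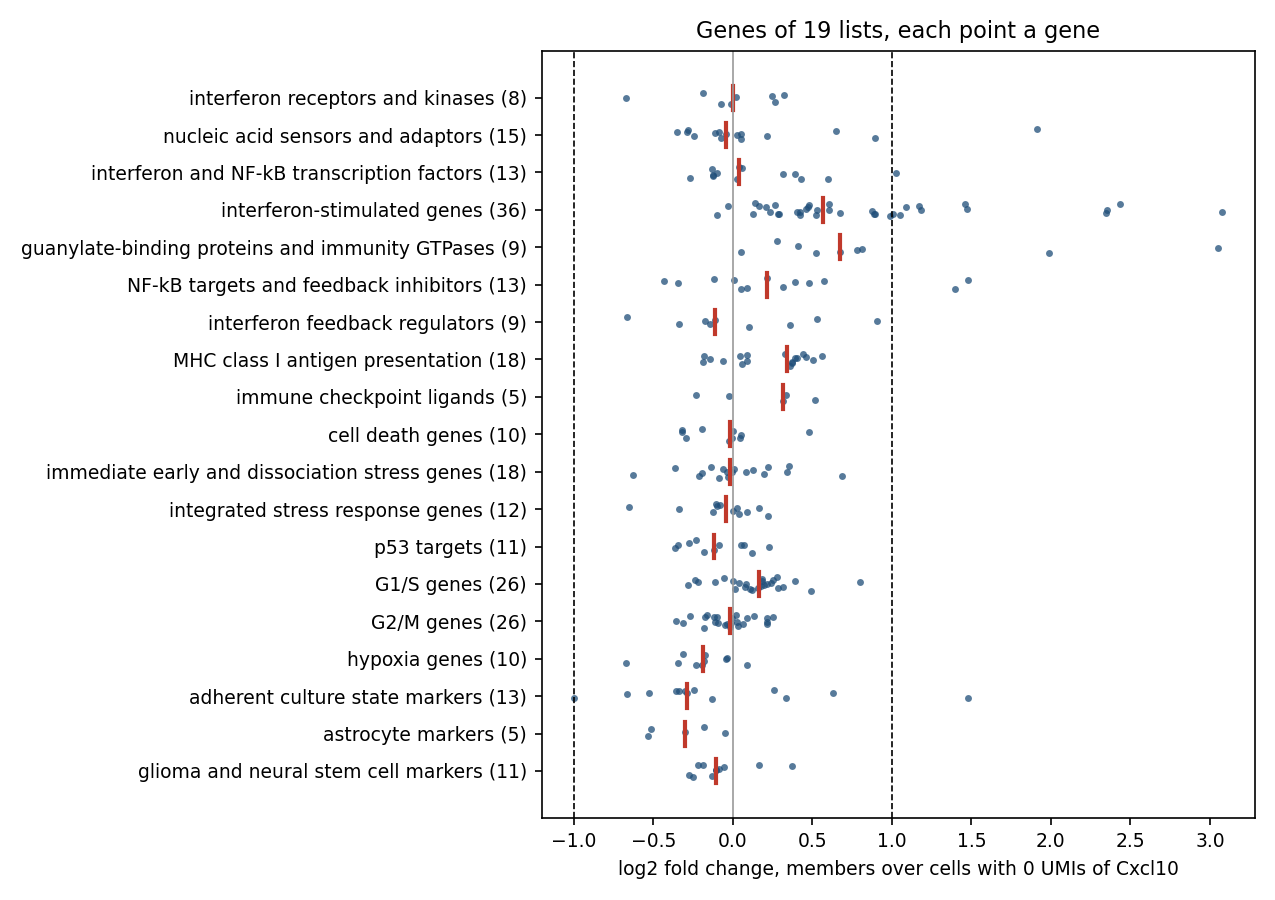
Log2 fold change of members over cells without Cxcl10 for each entered gene of the 19 lists with at least 5 entered genes, with the median of each list and lines at 2-fold. The medians of the guanylate-binding list (0.68) and the interferon-stimulated list (0.57) lie highest, and the median over all genes entered is −0.07.

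Several of the genes that led the ranking belonged to none of the pathway lists or were too rare to enter. Sp110, a nuclear body protein, had a log2 fold change of 2.23 (1.77 to 2.69) and its relative Sp140 1.97 (1.68 to 2.26). Sp110, which is counted among the 34, entered at 22.4 expected UMIs only with its 68 UMIs in members included. Its value is therefore a description. Their family has many near-identical copies in the mouse, so the split among them is uncertain. The genes that follow are named for at least 20 UMIs in members, a minimum set on the high group and so a description only. Krt17, a keratin of stressed epithelium, had 45 UMIs in 19 members, 22 in middle cells and 0 in cells without Cxcl10. Its level in members was 112-fold the level of 3 UMIs over the cells without Cxcl10, which is not a bound. On the log2 scale this value of 6.81 was 6.22 after thinning. Against cells with 0 to 9 UMIs of Cxcl10 the log2 fold change of Krt17 was 4.54. Acod1, the enzyme that makes itaconate, had 86 and 54 UMIs, a log2 fold change of 3.57 (3.07 to 4.09). It was detected in 13.6% of members and 1.32% of cells without Cxcl10. Gpc5, a heparan sulfate proteoglycan, had 29 and 15 UMIs and a value of 3.85 (2.91 to 4.86).

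The lower genes were sparse. They had a median of 15 UMIs in members (range 7 to 100). The lowest values were those of Atl1, which shapes the endoplasmic reticulum, at −1.85 (−3.19 to −0.78) from 7 UMIs, and Ptgds, a prostaglandin D synthase, at −1.76 (−2.99 to −0.75) from 8 UMIs. Of the 202 Ptgds UMIs in cells without Cxcl10, 35 lay in 1 cell. Jakmip2, Fam178b and Add3 followed at −1.58, −1.41 and −1.32. Atl1, Ptgds and Fam178b passed the entry filter, at 23.2, 21.3 and 24.8 expected UMIs, only with their UMIs in cells without Cxcl10 included. That is the group in which these genes were higher, so their values are a description. At a Cxcl10 minimum of 5 UMIs, Atl1 (−0.97), Jakmip2 (−0.56) and Add3 (−0.96) were no longer past 2-fold. After thinning Atl1 (−1.17) and Ptgds (−1.35) lay closer to equal, while Jakmip2 (−2.73), Fam178b (−1.59) and Add3 (−1.54) lay further from it.

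Lists of stress and proliferation held 0 genes past 2-fold. The medians were −0.02 for cell death genes (10 entered), −0.02 for immediate early and dissociation genes (18), −0.04 for the integrated stress response (12), −0.12 for p53 targets (11), −0.19 for hypoxia genes (10), 0.17 for G1/S genes (26) and −0.02 for G2/M genes (26). Atf3, a stress-induced factor, had the largest value among the immediate early genes, 0.69 (0.51 to 0.86), and Btg2 the smallest, −0.63 (−0.97 to −0.30). Of the G1/S genes 21 of 26 lay above 0, against 3571 of 9717 over all genes entered, and Ccne1, which encodes cyclin E1, had 0.80 (0.54 to 1.05). At a Cxcl10 minimum of 20 UMIs Atf3 (1.06) and Ccne1 (1.03) were past 2-fold, as was Ccne1 by the mean CPM over cells (1.01). Per cell, the G1/S list had a median of 12.8 UMIs per 10000 in members, 13.0 in middle cells and 11.6 in cells without Cxcl10, and the G2/M list 42.4, 50.6 and 39.7. By these medians the middle cells were highest for both lists. Pooled over cells, the G1/S list was highest in members, at 1427 CPM against 1393 CPM in middle cells and 1320 CPM in cells without Cxcl10. The pooled G2/M list was highest in middle cells. Among 15 markers of adherent culture state 13 entered, with a median of −0.29. Of these, Lcn2 was over 2-fold higher (0.35% over all genes entered) and 0 were lower. Ly6a, which encodes the surface protein Sca-1, had 0.63 (0.45 to 0.81) and Lhfpl3 the lowest value, −0.998 (−1.36 to −0.66), just short of 2-fold. By the mean CPM over cells (−1.11) and without the member with most of its UMIs (−1.14) it was past 2-fold. Under the other settings it was not, from −0.80 at a Cxcl10 minimum of 5 UMIs to −0.99 with Cxcl10 left out of the total.

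Markers of other cell types were read to check what the members were. Of 16 microglia and macrophage markers, 10 had no UMI in members, namely Ptprc, Aif1, Csf1r, Itgam, Tyrobp, C1qa, C1qb, C1qc, Trem2 and Adgre1. The list summed to 22.9 CPM in members, 18.4 CPM in middle cells and 21.2 CPM in cells without Cxcl10, and its most abundant gene was Cd68, at 10.7 and 10.9 CPM. The other genes detected in members were Cd14 (26 UMIs), Lyz2 (15), Cx3cr1 (3), Fcer1g (1) and Mrc1 (1), and without Cd68 the sums were 12.3 CPM in members and 10.3 CPM in cells without Cxcl10. The floor of 3 UMIs in members was 0.800 CPM. Of 12 T and NK cell markers 7 were at 0 in members, and the list summed to 4.27 CPM (16 UMIs) against 2.00 CPM, with Cd3g the most abundant gene and Cd3e, Cd8a, Ncr1, Gzmb and Prf1 at 0 in the library. Of 5 B cell markers 3 were at 0, and the sum was 1.07 CPM (4 UMIs) against 0.535 CPM, mostly Cd79a. Of 8 dendritic cell markers 5 were at 0, and all but 2.67 CPM in members and 2.82 CPM in cells without Cxcl10 was Bst2. Of 7 endothelial markers 4 were at 0, and the sum of 26.7 against 27.8 CPM was nearly all Flt1. Of 9 fibroblast and pericyte markers 6 were at 0, and the sum was 5.34 against 8.03 CPM, with Col3a1 the most abundant.

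Markers of the tumor line itself were present in both groups. The 13 markers of glioma and neural stem cells summed to 7535 CPM in members and 7965 CPM in cells without Cxcl10. Vim, an intermediate filament gene, was the most abundant of them and Prom1 was at 0 in the library. For 11 entered genes the median was −0.11, with 0 called. The 10 astrocyte markers summed to 480 and 620 CPM, with 5 entered, 0 called and a median of −0.30. Slc1a3, a glutamate transporter, made up most of this sum, at 275 and 397 CPM. S100b followed at 162 and 168 CPM. Aqp4 and Sox9 were at 0 in the library, Slc1a2 was at 0 in members, and Gfap had 1 UMI in members, while Gja1 had 56, Glul 58, Aldoc 35 and Aldh1l1 11. The astrocyte list was thus detected in part, and Gfap, Aqp4 and Sox9 were absent or nearly so.

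Some of the higher genes are neighbors on the chromosomes. Within 500 kb of another higher gene lay 13 of the 34, in 5 groups, and within 500 kb of another lower gene lay 4 of the 38, in 2 groups. These counts are a description, with no share over all genes entered to set them against, and several groups are families whose split of UMIs is uncertain. The groups were Ifit1 with Ifit2, Ifit3 and Ifit3b on chromosome 19, Rsad2 with Cmpk2 on chromosome 12, Gbp2 with Gbp5 on chromosome 3, Ifi204 with Ifi211 on chromosome 1, and Sp110 with Sp140 and C130026I21Rik elsewhere on chromosome 1. Rsad2 and Cmpk2 run in opposite directions with starts 12752 bases apart. Cxcl10 lies at chr5:92346638-92348889 on the minus strand of GRCm38, Ccl5 at chr11:83525778-83530518 on the minus strand, Rsad2 at chr12:26442746-26456452 on the minus strand and Ifit1 at chr19:34640871-34650009 on the plus strand.

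The other markers were higher in members, which Cxcl10 itself chose. The promoters of Cxcl10, Rsad2, Ifit1 and Ifnb1 are shown from 250 bases before to 50 bases after the gene start, from RefSeq on build GRCm38.p6. Ccl5 is named only. The motifs searched on both strands were the core of the interferon-stimulated response element, GAAANNGAAA, and the NF-κB consensus, and capitals mark the matches. Of 32851 promoters of the same length 3.44% held the first motif, 4.51% the second and 0.183% both. Cxcl10 (chr5:92348840-92349139, minus strand) held 1 match to the response element and 2 to the NF-κB consensus. Rsad2 (chr12:26456403-26456702, minus strand) held 1 match to the response element, and Ifit1 (chr19:34640639-34640938, plus strand) held 2. Ifnb1 (chr4:88522745-88523044, minus strand) held 1 match to the NF-κB consensus.
Cxcl10: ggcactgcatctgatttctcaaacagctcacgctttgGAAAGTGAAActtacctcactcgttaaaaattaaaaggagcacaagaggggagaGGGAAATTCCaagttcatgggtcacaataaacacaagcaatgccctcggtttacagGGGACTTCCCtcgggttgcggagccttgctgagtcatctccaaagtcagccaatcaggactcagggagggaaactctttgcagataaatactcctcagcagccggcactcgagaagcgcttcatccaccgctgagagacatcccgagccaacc
Rsad2: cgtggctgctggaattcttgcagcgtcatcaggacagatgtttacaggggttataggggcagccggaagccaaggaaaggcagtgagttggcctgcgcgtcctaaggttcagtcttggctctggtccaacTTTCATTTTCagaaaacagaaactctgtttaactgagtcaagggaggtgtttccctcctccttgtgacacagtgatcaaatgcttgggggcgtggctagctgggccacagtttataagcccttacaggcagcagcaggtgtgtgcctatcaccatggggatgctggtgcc
Ifit1: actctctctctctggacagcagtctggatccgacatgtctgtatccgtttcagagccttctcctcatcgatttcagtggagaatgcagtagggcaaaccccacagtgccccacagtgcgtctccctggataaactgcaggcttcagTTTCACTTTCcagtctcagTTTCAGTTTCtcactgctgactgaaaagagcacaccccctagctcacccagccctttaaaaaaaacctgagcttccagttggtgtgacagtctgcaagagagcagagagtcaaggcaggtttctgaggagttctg
Ifnb1: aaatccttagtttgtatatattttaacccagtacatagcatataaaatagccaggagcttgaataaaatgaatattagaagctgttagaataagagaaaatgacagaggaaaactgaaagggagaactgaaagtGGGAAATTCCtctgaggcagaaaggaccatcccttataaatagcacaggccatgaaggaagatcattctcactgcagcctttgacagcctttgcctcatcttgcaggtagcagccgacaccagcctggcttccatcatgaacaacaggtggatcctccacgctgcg

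The matches are a description of letters and show no binding. Over gene sets, 11 of the 31 higher genes with a promoter in the table held the response element motif (35.5%), as did 0 of 28 lower genes and 3.76% of all entered genes with a promoter. The NF-κB motif was held by 5 of 31 higher genes (16.1%), 3 of 28 lower genes (10.7%) and 6.03% of all entered genes. Cxcl10, which chose the cells, is among the higher genes in these counts, and without it 10 of 30 (33.3%) held the response element motif and 4 of 30 (13.3%) the NF-κB motif.

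In the neurosphere library the same rule took 22 of 4276 kept cells, 0.515% (0.323% to 0.778%), at a median depth of 16837 UMIs against 13041.5 in its 4130 cells without Cxcl10. In these few cells Rsad2 had a log2 fold change of 6.18, Isg15 3.68 and Bst2 1.65, and of 3991 genes entered 56 (1.4%) were over 2-fold higher and 163 (4.08%) over 2-fold lower. Ifit1 did not pass the entry filter there and had 481 UMIs in members and 2259 in cells without Cxcl10, a log2 fold change of 4.99. Because that filter counts the members' own UMIs, the value of Rsad2 is a description. It came from 1043 UMIs in members and 2149 in cells without Cxcl10. Culture and library cannot be told apart here, and the difference in share between them was not tested.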

How the data were processed

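The deposited files held raw UMI counts per gene and cell barcode, which the authors made with Cell Ranger 7.0.1 on the mm10 mouse genome for 1 adherent and 1 neurosphere library. Of 32285 genes, 13 mitochondrial and 101 ribosomal protein genes were dropped. Cells were kept with at least 1000 UMIs and at least 1250 genes (adherent) or 2250 genes (neurosphere), which left 5051 of 5764 and 4276 of 4951 called cells. No doublet caller was used, and leaving out cells over the 95th percentile of UMIs was tried instead. The members and gene lists were chosen with earlier results of these data known. UMIs were summed over the cells of a group and given as CPM. A gene entered when its level over all kept adherent cells would give at least 20 UMIs in members, and a floor of 3 UMIs over the group replaced a count of 0. Intervals were exact (Poisson for levels, conditional binomial for fold changes, Clopper-Pearson for shares). Thinning to 5000 UMIs per cell used a fixed seed. The genes named were taken from a wider selection, and not all of it is named. It held the markers and the 3 largest and the smallest log2 fold change of each of 28 lists. It also held any gene with a UMI in members from the ligand, receptor, sensor, transcription factor and chemokine lists. The 10 largest and 10 smallest among entered genes, and the 10 largest with at least 20 UMIs in members, completed it. Other genes appear as the most abundant or undetected genes of a list, or as members of a count. Positions came from GENCODE M21, in which 32235 of the 32285 identifiers were found. Alternatives changed the Cxcl10 minimum, the depth, the weight of cells, the total, the comparison cells and the entry filter. Calculations ran in Python 3.11.15, using scipy 1.17.1 for intervals, numpy 2.4.6 and pandas 2.3.3 for tables and matplotlib 3.10.9 for figures.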

Additional observations from a re-analysis of the deposited data

Results flagged for a closer look

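Barcodes that the cell filter left out enter no comparison, and in both libraries they held Cxcl10 above the level that 3 counts would give. The 713 adherent barcodes held 263 CPM (exact Poisson 95% interval 214 to 319), above a floor of 7.65 CPM. This came from 103 UMIs in 51 barcodes, and 2 of them held at least 10 UMIs, with a highest count of 12. The kept adherent cells stood at 295 CPM. The 675 neurosphere barcodes held 97.4 CPM (73.6 to 127), above a floor of 5.22 CPM, against 24.6 CPM in kept neurosphere cells. This came from 56 UMIs in 8 barcodes, 3 of which held at least 10 UMIs, with a highest count of 27. The source of either signal was not tested.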

How the results depend on the processing

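Members numbered 300 without cells over the 95th percentile of UMIs, 562 at a minimum of 5 UMIs of Cxcl10 and 176 at a minimum of 20, as those rules imply, and 338 without barcodes that both libraries share. Genes over 2-fold higher numbered 21 after thinning to 5000 UMIs per cell (19 of them among the 34), and 52, 19 and 533 with an entry filter of 10 or 50 expected UMIs or none beyond 1 UMI. Of the 34, 23 were also called at a minimum of 5 UMIs, 26 at 20 UMIs, 34 with depth-weighted comparison cells, 32 by the mean CPM, 30 without cells over the 95th percentile and 28 against cells with 0 to 9 UMIs. Genes over 2-fold lower numbered 66 by the mean CPM over cells, 20 against cells with 0 to 9 UMIs of Cxcl10, and 132, 3 and 729 under those entry filters. They numbered 79 without the highest member cell of each gene, a step that can only lower a gene and was chosen after seeing the data. Lcn2 turned to −0.046 without cells over the 95th percentile, and the cause was not tested. The median of the interferon-stimulated list stayed between 0.47 and 0.63 under every alternative run. Lower genes in common with the 38 ranged by setting, from 5 of 38 at a minimum of 5 UMIs, 12 of 42 at 20 UMIs, 8 of 28 after thinning and 14 of 27 without cells over the 95th percentile to 22 of 26 with depth-weighted comparison cells and 38 of 38 with Cxcl10 left out of the total. With a median of 15 UMIs in members their values are limited by depth. No paired analysis was possible because the libraries are of separate cultures, 1 of each.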
